A study of Rattus norvegicus with 56 samples.

Results

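The data compared pramipexole with saline place conditioning in lesioned rats that had also been given L-dopa. The arrays were those titled Lesion L-dopa ppx (rats 1 to 7) and Lesion L-dopa saline (rats 8 to 14), which make 14 of the 56 arrays of the series. Each array holds dorsal striatum RNA from 1 male Crl:OFA Sprague Dawley rat. All 14 rats carried a bilateral lesion of the nigra made with an AAV vector that expresses alpha-synuclein, and all 14 received daily injections of benserazide and L-dopa methyl ester (50 mg/kg) for 3 weeks, starting 5 weeks after the lesion. Rats 1 to 7 were then conditioned with pramipexole (2 mg/kg, in sessions of 40 min) and rats 8 to 14 with saline. The brain was taken after a 20 min test at the end of conditioning, 24 or 48 hours after the last dose of pramipexole or saline, and the labels do not give which rat had which interval. The question set by the design is what conditioning with a dopamine agonist leaves in the striatal transcriptome of a lesioned animal that is already under L-dopa. Neither a rat with sham surgery nor a rat without L-dopa belongs to these 14, so the lesion and L-dopa are common to both sides of the comparison.

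Pramipexole is an agonist of the D2 family of dopamine receptors that prefers the D3 receptor, and it is used in Parkinson's disease, where it can give rise to impulse control disorders. The dorsal striatum is the main target of nigral dopamine neurons. Its principal cells are spiny projection neurons of 2 kinds: those with D1 receptors express dynorphin (Pdyn) and substance P (Tac1), and those with D2 receptors express enkephalin (Penk). Loss of dopamine is known to raise enkephalin and lower substance P, and repeated L-dopa is known to raise dynorphin and FosB.

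Values are log2 MAS5 signals, so a difference of 1 is a 2-fold difference. The 18560 probe sets with a mean log2 signal above 5 over the 14 arrays were tested. Array medians lay between 5.67 and 5.81 and the correlation between pairs of arrays between 0.939 and 0.957. The median absolute difference between the groups was 0.0652 over all probe sets tested, against a median SE of 0.0921. The 3′ minus 5′ signal of control probe sets, a measure of RNA quality, was 0.883 ± 0.072 (SD, n = 7) with pramipexole and 0.887 ± 0.096 (SD, n = 7) with saline, a difference of -0.0041 (two-sided exact permutation test, p = 0.941). Rat 2 stood apart: 342 probe sets lay more than 1 log2 unit above the mean of the other rats of its group, against 7 to 26 in the other 13 rats, so results that it touches are given with and without it. Spiny neuron markers of the striatum gave high signals in pramipexole and saline rats. Penk was at 12.29 and 12.17, Drd1 at 10.78 and 10.70, Tac1 at 10.20 and 10.07 and Drd2 at 9.80 and 9.61. The dorsal part of the tissue label was not tested with them. Tyrosine hydroxylase (Th) and Drd3 were below the filter on these arrays and were not tested.

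No probe set passed the test. limma called 0 of 18560 (0%) at a Benjamini-Hochberg adjusted p under 0.05, and the smallest adjusted p was 0.228 (0.328 without rat 2). At an unadjusted p under 0.05 there were 1030 probe sets, of which 592 were higher with pramipexole (3.19% of those tested) and 438 lower (2.36%); 928 would be reached at that level with no difference anywhere. The absolute difference exceeded 0.5 in 109 probe sets and 1 in 8. The values below are therefore descriptions of 14 rats. The limma p-values set each difference against the spread between individual rats, which the main fit estimates from the 28 lesioned rats.

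**Figure D1:**
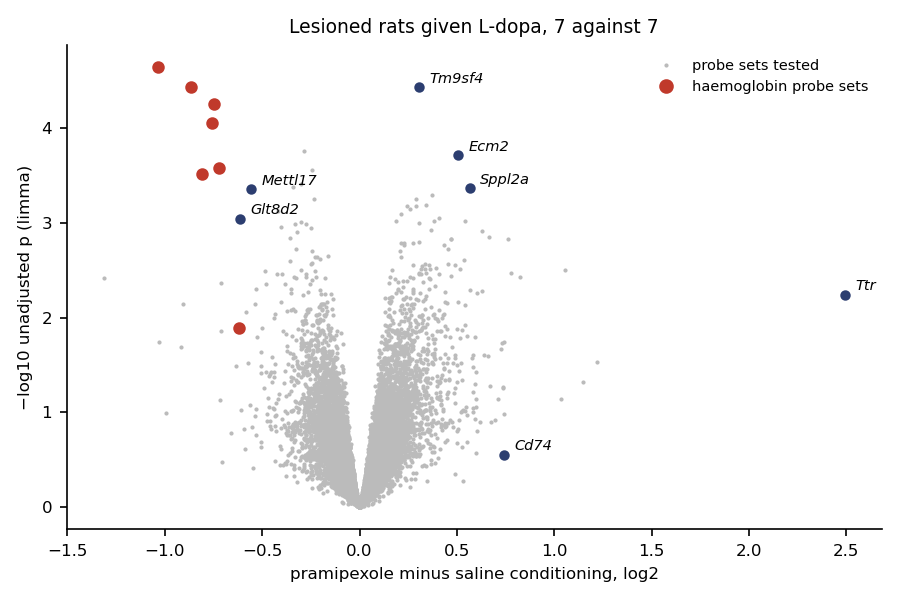
Difference between pramipexole and saline conditioning (x axis, log2) against the unadjusted limma p (y axis, −log10) for the 18560 probe sets tested, 7 against 7 rats. The 7 haemoglobin probe sets (red) lie on the left at differences of -0.62 to -1.04, and none of the points passed the adjusted threshold. Ttr lies at 2.49 on the right.

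Haemoglobin transcripts were the group that lay nearest to the threshold. All 7 tested probe sets annotated to alpha- or beta-globin genes were lower with pramipexole, and 6 of them stood among the 10 probe sets of smallest p of the whole table. Haemoglobin carries oxygen in red blood cells, and its mRNA reaches tissue RNA mainly through reticulocytes in vessels; low levels in neurons and glia have also been described. Because these genes were described together, the bases upstream of their start sites are shown here. The sequences are the 150 bases before the start from RefSeq on GRCr8, all on the minus strand, read 5′ to 3′. Capitals mark any of 3 short motifs, searched on both strands, that are known parts of globin promoters. The first is CCAAT, a common box of proximal promoters. The second, bound by the red cell factor Klf1, reads CACCC at its core. The third is part of the box that places the start of transcription and reads ATAAA in globin genes.

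Hbb (chr1:167663722-167663871): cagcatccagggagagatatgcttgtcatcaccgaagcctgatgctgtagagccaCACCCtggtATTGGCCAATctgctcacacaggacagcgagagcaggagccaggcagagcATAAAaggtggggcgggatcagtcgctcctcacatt

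Hbb-bs (chr1:167631631-167631780): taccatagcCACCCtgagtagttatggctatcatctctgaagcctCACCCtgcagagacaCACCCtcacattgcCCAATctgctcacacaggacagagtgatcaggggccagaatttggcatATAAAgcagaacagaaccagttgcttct

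Hba-a1 (chr10:15842581-15842730): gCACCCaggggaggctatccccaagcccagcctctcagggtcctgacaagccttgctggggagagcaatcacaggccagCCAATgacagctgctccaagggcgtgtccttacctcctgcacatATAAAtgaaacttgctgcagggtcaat

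Hba-a2 (chr10:15829139-15829288): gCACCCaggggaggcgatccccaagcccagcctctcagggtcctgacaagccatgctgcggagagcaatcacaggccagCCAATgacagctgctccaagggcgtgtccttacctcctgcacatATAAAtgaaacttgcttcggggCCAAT

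Each of these 4 windows holds the first motif 1 or 2 times, the second 1 to 3 times and the third 1 time, and in Hbb the first motif stands on both strands, the matches side by side. Among 33469 rat promoters of the same length, 23.5% hold the first, 35.2% the second and 25.7% the third. The letters GATAA, which GATA factors bind, were in none of the 4 windows and in 14.2% of all promoters. The windows of Hbbl1 and Hba-a3, not printed, also hold the first motif 1 or 2 times, the third 1 time and GATAA 0 times, and that of Hba-a3 holds the second 0 times. A match describes the letters of a window and nothing more.

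Hbb has a probe set annotated to it alone, of the x_at type, whose probes can also match related transcripts. Its log2 signal in rats 1 to 7 was 10.68, 9.75, 9.72, 9.71, 9.83, 10.03 and 9.78 with pramipexole. In rats 8 to 14 it was 11.08, 10.50, 10.91, 10.88, 10.91, 10.97 and 10.31 with saline. Rat 1 lay among the saline rats and each of the other 6 pramipexole rats lay below all 7 of them. The means were 9.93 ± 0.35 and 10.79 ± 0.28 (SD, n = 7 each), a difference of -0.87 ± 0.18 (SE) with all 7 pramipexole rats below the saline mean (limma, adjusted p = 0.228). Its value without rat 2 was -0.84 (adjusted p = 0.502).

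The probe sets annotated to Hba-a1 and Hba-a2 together cannot separate these near-identical genes. The brightest of these alpha-globin probe sets read 11.86, 11.02, 11.00, 10.94, 11.03, 11.12 and 10.99 in rats 1 to 7 and 12.21, 11.54, 11.92, 11.99, 11.95, 12.07 and 11.50 in rats 8 to 14. It had the pattern of Hbb, with rat 1 again inside the saline range. The difference was -0.75 ± 0.16 (SE, adjusted p = 0.255 by limma), and the other two alpha-globin probe sets differed by -0.76 and -0.72. The probe sets annotated to the beta-globin genes Hbbl1 and Hbb-bs differed by -1.04 ± 0.20 (adjusted p = 0.228) and -0.81 ± 0.20 (adjusted p = 0.561). Hba-a3 differed by -0.62 ± 0.23 (adjusted p = 0.833).

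The globin calls depended on rat 1 and on the arrays in the fit. With all 14 rats none of the 7 probe sets separated the groups, and without rat 1 the groups of 6 and 7 did not overlap for 6 of them. The globin probe sets and rat 1 were both singled out after their values were seen. The separation without rat 1 follows from that choice, and so in part do the calls, so neither is independent support. Leaving out any other single rat gave no call in this comparison. Without rat 1, limma called 4 globin probe sets and nothing else: Hbb at -0.99 (adjusted p = 0.0137), the probe set of Hbbl1 and Hbb-bs at -1.18 (0.0137) and both of the brighter alpha-globin probe sets at -0.87 (0.0137 and 0.0259). In a fit over all 56 arrays of the series with rat 1 kept, 3 probe sets were called, all globin, with adjusted p of 0.0350 for Hbb, 0.0350 for Hbbl1 and Hbb-bs and 0.0422 for alpha-globin. Their difference is the same there, and the spread is estimated from more rats. Those arrays include sham arrays from after a step between array sets (see processing). The sham group given L-dopa and saline has arrays on both sides of the step, so the spread can hold part of it. Over the settings tried, the adjusted p of Hbb ran from 0.0137 to 0.595, the latter without rat 13.

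**Figure D2:**
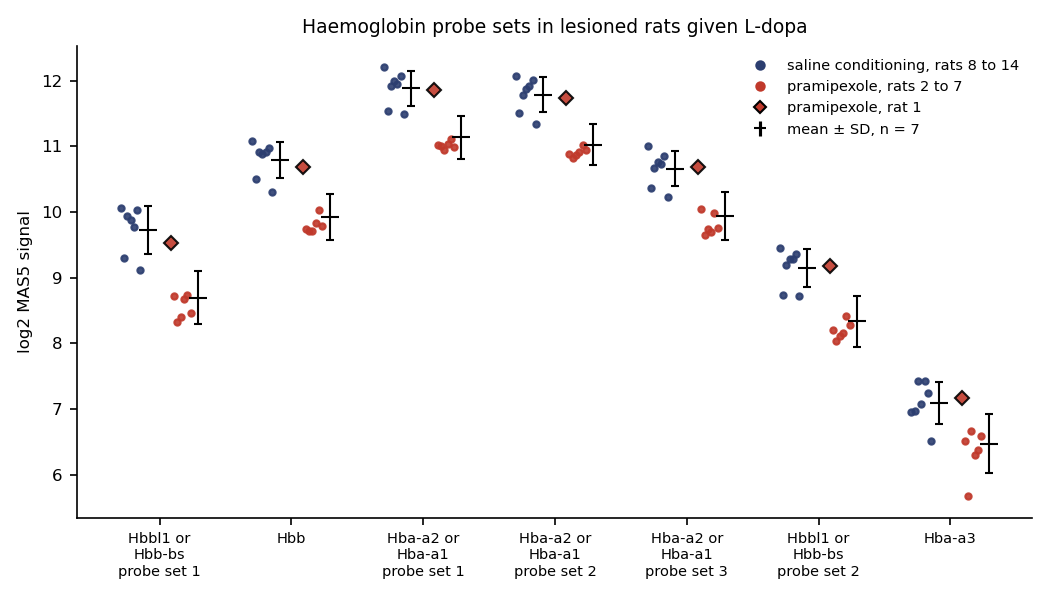
Log2 MAS5 signal (y axis) of the 7 haemoglobin probe sets tested (x axis, named by the genes they are annotated to) in saline rats 8 to 14 (blue) and pramipexole rats 1 to 7 (red), with the mean ± SD of each group. Rat 1 (diamond) lies within the saline range of every probe set, while the other 6 pramipexole rats lie below it in 6 of 7.

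Other red cell genes gave little signal to set beside the globins. Alas2, the red cell enzyme that starts haem synthesis, had means of 3.86 with pramipexole and 4.44 with saline, and Ahsp, the alpha-globin chaperone, 2.68 and 3.40. Both were below the filter and not tested. Gata1, an erythroid transcription factor, was at 3.67 and 3.38, in the other direction. The probe sets of Slc4a1 differed by 0.14 and -0.34, and Epb42 was at 0.71 and 1.67. These were also below the filter. The platelet gene Pf4 passed the filter and was 5.52 ± 0.27 and 5.61 ± 0.32 (SD, n = 7 each), a difference of -0.09. In these bulk samples, fewer cells of a type and less RNA per cell cannot be told apart, and the amount of blood left in each dissected striatum was not measured, so its part in the globin difference was not tested.

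The globin difference was smaller in the lesioned rats without L-dopa, a comparison that shares no rats with this one. There the pramipexole minus saline difference of Hbb was -0.18 ± 0.18 (SE, 7 against 7), and over the 7 probe sets it lay between -0.03 and -0.31. The difference between the 2 effects was -0.69 ± 0.25 for Hbb (adjusted p = 0.688 by limma), so it did not pass. In sham rats without L-dopa the Hbb difference was -0.36 ± 0.17 (adjusted p = 0.769 by limma in the fit over all arrays). All 7 probe sets were lower there, by -0.18 to -0.54. Over all probe sets tested, the sign was the same in 48.7% in lesioned rats without L-dopa and in 47.2% in sham rats. The 7 probe sets cover closely related genes, so they are not 7 separate observations.

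Among genes other than the globins, those of smallest p differed by small amounts, and none passed. The largest of the 12 higher ones was Sppl2a, an intramembrane protease, at 6.63 ± 0.37 with pramipexole and 6.07 ± 0.26 with saline (SD, n = 7 each). The difference was 0.57 ± 0.14 (SE, adjusted p = 0.583 by limma). It was highest in rat 2 at 7.27 and was 0.46 without that rat. Its other 3 probe sets were all higher, by 0.02 to 0.13.

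Tm9sf4, a membrane protein of the endosomal and Golgi system, had the smallest p of these genes and separated the groups. Its values were 6.91, 6.85, 7.06, 7.08, 7.09, 6.91 and 7.11 in rats 1 to 7 and 6.74, 6.74, 6.61, 6.74, 6.75, 6.60 and 6.67 in rats 8 to 14. The lowest pramipexole rat lay above the highest saline rat. The difference was 0.31 ± 0.06 (SE, adjusted p = 0.228 by limma) and 0.33 without rat 2, and the other 2 probe sets of the gene were higher by 0.05 and 0.14.

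Ecm2, an extracellular matrix protein, was 5.66, 5.31, 5.55, 5.14, 5.10, 5.93 and 5.83 in rats 1 to 7 and 5.26, 4.91, 4.81, 4.82, 5.22, 5.05 and 4.91 in rats 8 to 14. Every pramipexole rat lay above the saline mean, and the groups overlapped. The difference was 0.51 ± 0.12 (SE, adjusted p = 0.507 by limma). Slc1a2, the main glutamate transporter of astrocytes, was higher by 0.37 ± 0.10 on one probe set and lower by 0.14 on its other, so its probe sets disagreed. The neurotrophin receptor relative Nradd was higher by 0.54, the histone acetyltransferase subunit Ing4 by 0.29, the RNA acetyltransferase Nat10 by 0.34, the ubiquitin ligase Huwe1 by 0.26, the amino acid transporter relative Slc38a10 by 0.24 and the E3 ligase Peli2 by 0.29.

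The lower genes of smallest p besides Hbb included Mettl17, a factor of the mitochondrial ribosome. It was 5.31, 5.92, 4.95, 5.99, 5.63, 5.42 and 4.88 in rats 1 to 7 and 6.14, 6.06, 6.10, 5.73, 6.10, 6.03 and 5.85 in rats 8 to 14. All 7 pramipexole rats lay below the saline mean, and rats 2 and 4 overlapped the saline range. The difference was -0.56 ± 0.14 (SE, adjusted p = 0.583 by limma) and -0.64 without rat 2. The glycosyltransferase relative Glt8d2 differed by -0.61 ± 0.17, Daam2, a formin of the Wnt pathway, by -0.42 ± 0.11, and Smad7, an inhibitor of TGF-beta signalling, by -0.40 ± 0.11. Smad7's other probe set differed by 0.09, in the opposite direction. The actin nucleator Spire1 differed by -0.34 ± 0.09, and its other 3 probe sets by -0.12 to -0.07. Trim9, a neuronal ubiquitin ligase, differed by -0.33, the heparan sulfate enzyme Hs3st5 by -0.30, Dcaf6 by -0.28, Osgepl1 by -0.25, the chromatin reader Brd1 by -0.24 and Lrrfip1 by -0.23. The probe sets of Dcaf6 disagreed: its other 3 ran from -0.19 to 0.31, 2 of them with the same sign. The other probe set of Lrrfip1 differed by 0.0076, in the opposite direction. Of these 24 genes, 10 had another tested probe set, and in 6 of the 10 all the others had the same sign.

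**Figure D3:**
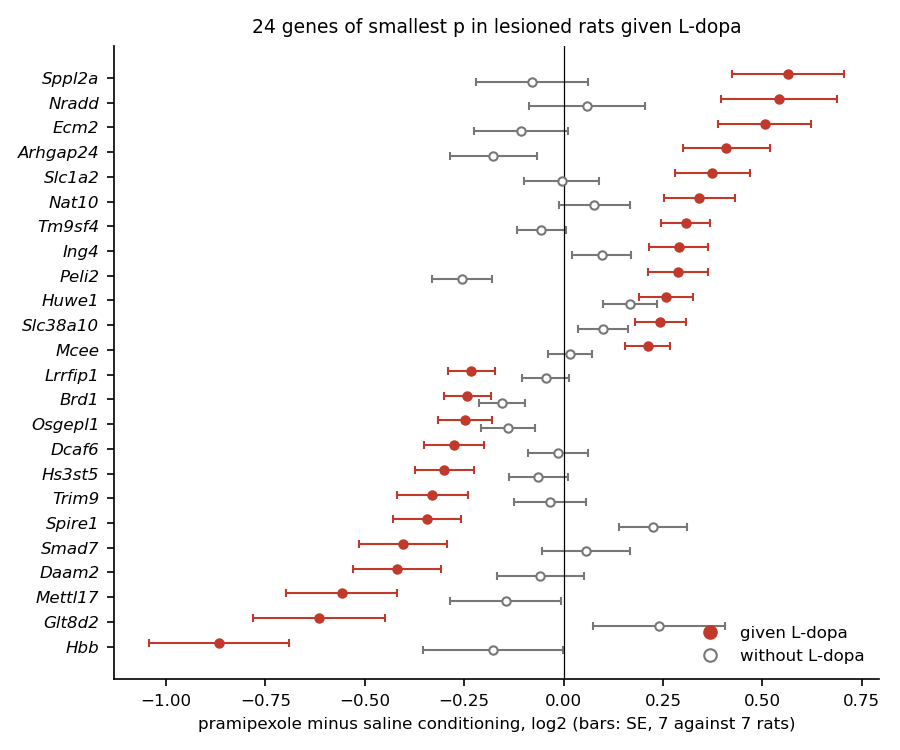
Pramipexole minus saline difference (x axis, log2, with SE) of the 24 genes of smallest p in lesioned rats given L-dopa (filled), and of the same genes in lesioned rats without L-dopa (open), 7 against 7 rats each. The filled values chose the genes; the open values come from other rats and had the same sign in 6 of the 12 higher and 9 of the 12 lower genes.

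The direction of these genes was set beside that in rats outside the comparison. In lesioned rats without L-dopa, 6 of the 12 higher genes and 9 of the 12 lower ones had the same sign. Over all probe sets tested the share of equal signs was 48.7%, and it was 54.9% of the 592 probe sets that were higher at an unadjusted p under 0.05 and 46.3% of the 438 that were lower. In sham rats without L-dopa, 4 of the 12 and 6 of the 12 had the same sign, against 47.2% of all probe sets.

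A few probe sets separated the groups completely. All 7 pramipexole rats lay above all 7 saline rats for 6 probe sets (0.0323% of those tested) and below them for 3 (0.0162%). The higher ones were Tm9sf4, Mcee, Arhgap24, Ttr, Zmym3 and Thop1, and the lower ones Cadm1, Tmem63c and a probe set that has no symbol. The rats can be split into 7 and 7 in 3432 ways, so a two-sided exact permutation test can reach p = 0.00058 at the smallest. With 18560 probe sets tested, separations in about this number are reached with no difference anywhere. The separated genes are therefore described and are not evidence of a difference. Without rat 2 there were 11 higher and 6 lower. Groups of 6 and 7 separate more often with no difference, so these counts cannot be compared with the first.

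Mcee, an enzyme of propionate breakdown, was 7.64 to 7.86 (median 7.69) with pramipexole and 7.39 to 7.64 (median 7.47) with saline, a difference of 0.21 ± 0.06 (SE). Arhgap24, a Rac GTPase-activating protein, was 6.10 to 6.78 against 5.76 to 6.08. Its difference of 0.41 ± 0.11 had rat 2 at the top and was 0.33 without it. Thop1, a peptidase that cleaves dynorphin and other neuropeptides, was 6.26 to 6.34 against 6.01 to 6.20, a difference of 0.21 ± 0.09. Zmym3, a chromatin protein, was 7.34 to 7.61 against 7.07 to 7.29, a difference of 0.26 ± 0.09. The synaptic adhesion molecule Cadm1 was 9.83 to 10.14 against 10.14 to 10.38, a difference of -0.23 ± 0.07, and its other probe set differed by -0.18. Tmem63c, a member of a mechanosensitive channel family, was 5.79 to 6.10 against 6.12 to 6.35, a difference of -0.26 ± 0.09. The smallest adjusted p among the last 4 genes was 0.725. For Mcee and Cadm1 the nearest rats of the groups were equal to 2 decimals.

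Ttr, or transthyretin, the thyroid hormone carrier made in the brain by the choroid plexus, had the largest difference of any probe set tested. It was 6.96, 6.14, 5.49, 7.46, 5.77, 7.49 and 12.59 in rats 1 to 7. In saline rats 8 to 14 it was 4.77, 5.07, 4.50, 5.37, 4.28, 5.08 and 5.36. Rat 7 lay far above the others, and the lowest pramipexole rat lay just above the highest saline rat. The difference was 2.49 ± 0.83 (SE, adjusted p = 0.784 by limma) and 2.71 without rat 2. It was 1.63 without rat 7 (adjusted p = 0.717).

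Choroid plexus markers were higher in part. Of 16 markers 14 were on the array, and 10 of these lay below the filter. The 4 tested were Ttr itself, Msx1, Folr1 and Aqp1, so the list values include Ttr and are not separate from it. Of the 4, 3 were higher, with a median of 0.363 (0.517 without rat 2 and 0.131 without rat 7). The median was 0.00241 over all probe sets tested. Msx1 differed by 0.41 ± 0.20, Folr1 by 0.32 and the water channel Aqp1 by -0.11. The mean of the 4 markers, Ttr included, was centred over the 28 lesioned rats. It ran from -0.58 to 2.50 with pramipexole and from -0.65 to -0.11 with saline. In lesioned rats without L-dopa Ttr differed by -1.15 ± 0.83, the opposite sign. The part of choroid plexus tissue in the Ttr difference was not tested.

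Most tested spiny neuron genes were slightly higher, none passed, and the sizes rested in part on single rats. Of 10 tested D1 spiny neuron genes 9 were higher, with a median of 0.144. All 5 tested D2 spiny neuron genes were higher, with a median of 0.15, and 19 of 20 genes common to both kinds were higher, with a median of 0.101. Over all probe sets tested, 9456 were higher and 9104 lower, with a median of 0.00241. Without rat 2 the medians were 0.15, 0.148 and 0.0895. Without rat 3 the shared genes were higher in 15 of 20 with a median of 0.0411, and without saline rat 9 in 15 of 20 with a median of 0.0417. The D2 median was 0.0935 without rat 3, with 4 of 5 higher, and 0.0859 without rat 9. The D1 median was 0.092 without saline rat 8 and 0.0501 without saline rat 11, with 9 of 10 higher in both. The mean of the shared genes differed between the groups by 0.0825 with all rats and by 0.029 without rat 3, while its median over rats was -0.04 with pramipexole and -0.03 with saline. The scores of the groups overlapped for all 3 lists.

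Among receptors, Drd1 was 10.53, 10.63, 11.15, 10.80, 10.79, 10.72 and 10.87 in rats 1 to 7 and 10.35, 10.38, 10.77, 10.48, 10.99, 10.90 and 11.03 in rats 8 to 14. Saline rats 8, 9 and 11 lay below the lowest pramipexole rat and pramipexole rat 3 above the highest saline rat, with the others overlapping. The difference was 0.08 ± 0.13 (SE, 95% interval -0.18 to 0.34). Drd2, the receptor family at which pramipexole acts, was 9.63, 9.88, 10.22, 9.76, 9.68, 9.76 and 9.65 against 9.54, 9.15, 9.61, 9.41, 9.99, 9.70 and 9.85. Its difference was 0.19 ± 0.14 (95% interval -0.10 to 0.48), with all 7 pramipexole rats above the saline mean and rat 3 the highest. The adenosine receptor of D2 cells, Adora2a, differed by 0.15 and the muscarinic receptor of D1 cells, Chrm4, by 0.16.

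Among the output peptides, Penk was 12.00 to 12.47 (median 12.31) with pramipexole and 11.86 to 12.31 (median 12.25) with saline, a difference of 0.12 ± 0.08 (SE, 95% interval -0.05 to 0.29). Tac1 was 9.80 to 10.61 (median 10.25) against 9.56 to 10.55 (median 9.97), a difference of 0.13 ± 0.17 (95% interval -0.22 to 0.48). Pdyn was 9.54 to 10.15 (median 9.74) against 9.07 to 10.25 (median 9.89), a difference of 0.08 ± 0.16 (95% interval -0.24 to 0.40). The ranges of all 3 peptides overlapped. Their adjusted p by limma was 0.888, 0.937 and 0.958.

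Signal transduction genes of the D1 and D2 receptors showed no common direction. Of 26 tested genes 14 were higher and 12 lower, with a median of 0.00972 (-0.00699 to 0.0191 with 1 rat left out). Ppp2r2b, a phosphatase subunit, differed by -0.16 ± 0.06 (SE, adjusted p = 0.833 by limma), and Rgs4, which shortens G protein signals, differed by -0.14 ± 0.07. The adenylyl cyclase Adcy5 differed by 0.12, the olfactory-type G protein Gnal by 0.18 and the phosphatase inhibitor Ppp1r1b (DARPP-32) by 0.08.

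Cerebral cortex markers lay opposite to the spiny neuron genes. Of 16 tested, 15 were lower with pramipexole, with a median of -0.224, and 14 were lower without rat 2. Without rat 3 the median was -0.0779 with 15 lower, and without saline rat 9 it was -0.12 with 15 lower. Neurod2, a transcription factor of cortical projection neurons, was 5.86 to 6.83 (median 6.63) with pramipexole and 6.15 to 7.29 (median 6.99) with saline, a difference of -0.38 ± 0.26 (SE). Emx1 differed by -0.33, Cux2 by -0.36 and the vesicular glutamate transporter Slc17a7 by -0.24 ± 0.32. The cortical score ran from -0.61 to 0.26 with pramipexole and from -0.22 to 0.64 with saline. It was lowest in rat 3, which was highest for the shared spiny neuron score at 0.34, and highest in rat 9, which was lowest for that score at -0.34. With the cortical markers as a covariate, the difference of Drd1 became -0.0103 and that of Pdyn -0.00968. Both differences were smaller than their SE without the covariate. Of the 122 probe sets followed over the settings, no others changed sign with it, and Drd2, Penk and Tac1 kept theirs. A kept sign does not show how far the size of a difference changed. The part of cortical tissue in the spiny neuron differences was not tested. In lesioned rats without L-dopa the cortical median was 0.265, the opposite sign.

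**Figure D4:**
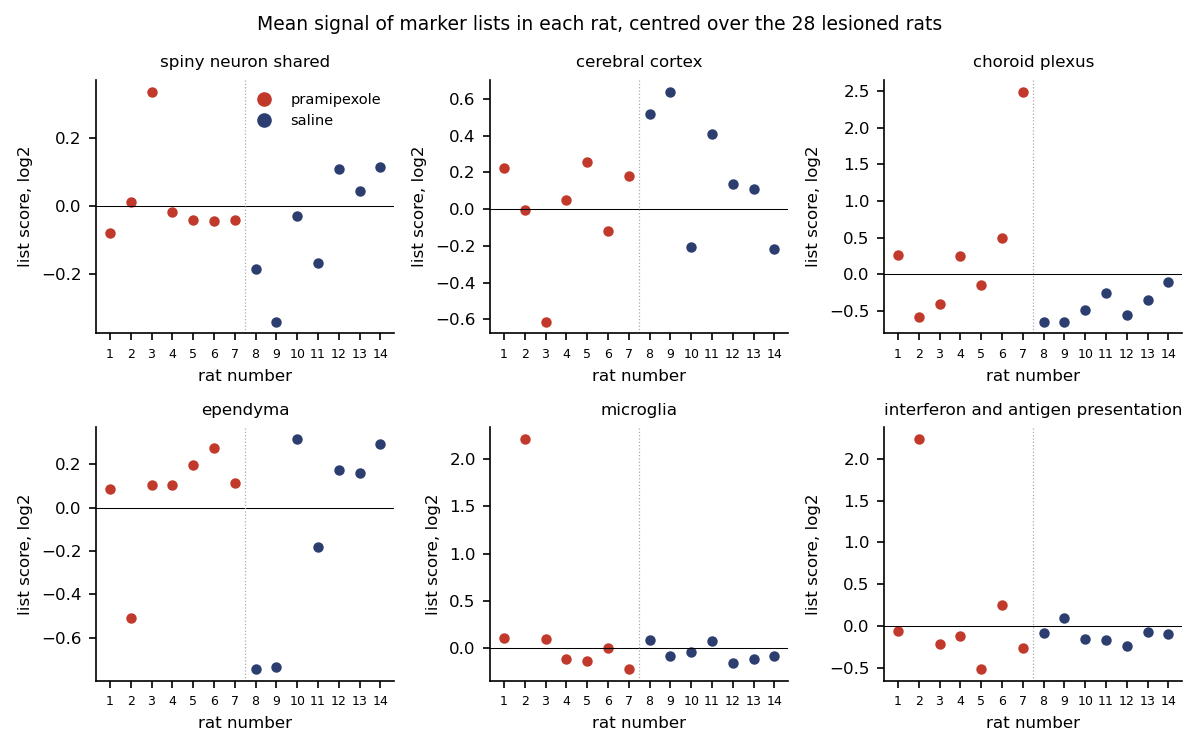
Mean signal of 6 marker lists (y axis, log2, each gene centred over the 28 lesioned rats) in each of the 14 rats (x axis, rat number), pramipexole in red and saline in blue. Rat 2 stands at 2.22 for microglia and 2.24 for interferon and antigen presentation, rat 7 at 2.50 for choroid plexus, and rat 3 is highest for shared spiny neuron and lowest for cortical markers.

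Immediate early genes, which neurons switch on within minutes of activity, did not lean one way. Of 27 tested, 16 were higher and 11 lower, with a median of 0.00494, and 13 and 14 without rat 2. With 1 rat left out the median ran from -0.0197 to 0.0583. Fosb, whose stable products build up under repeated dopamine stimulation, was 4.78 to 5.20 (median 5.03) with pramipexole and 4.84 to 5.41 (median 5.06) with saline. Its difference was -0.11 ± 0.15 (SE, 95% interval -0.42 to 0.19). Arc, a synaptic effector of activity, was 6.71 to 7.38 (median 7.08) against 5.96 to 7.89 (median 6.75), a difference of 0.25 ± 0.22 (95% interval -0.19 to 0.70). Saline rats 9 and 13 held both extremes of Arc. Homer1, a postsynaptic scaffold, differed by -0.04 ± 0.08 and the growth factor Bdnf by -0.21 ± 0.23. Fos differed by 0.21, Egr1 by -0.03 and Nr4a1 by 0.15. The member of smallest p was Ier3 at 0.29 ± 0.11 (adjusted p = 0.829 by limma). The genes linked to dyskinesia were higher in 12 of 16, with a median of 0.0301 (0.0123 to 0.0631 with 1 rat left out).

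Neuropeptide and opioid genes were higher in 9 and lower in 11 of 20, with a median of -0.0894, and without rat 3 the median was -0.0235, again with 9 higher and 11 lower. It ran from -0.141 to -0.0235 with 1 rat left out. The somatostatin receptor Sstr2 differed by -0.38 ± 0.17 (SE, adjusted p = 0.879 by limma), the peptides Vip by -0.44 and Pnoc by -0.43, and the peptide Npy by 0.12 ± 0.06. Rat 3 was lowest for this list at -0.58, and the mean of the list differed by -0.114 with it and -0.0241 without. Glutamate receptor and scaffold genes were higher in 11 and lower in 21 of 32, with a median of -0.0196 (-0.0375 to -0.013 with 1 rat left out). Shank3, the scaffold of corticostriatal synapses, went against that majority at 0.35 ± 0.14, from 7.66 to 8.16 with pramipexole and from 6.96 to 7.90 with saline, and Dlg3 differed by -0.09. The GABA receptor subunits Gabrb1 and Gabra5 differed by -0.19 ± 0.07 and -0.32 ± 0.14. GABA signalling genes as a list were higher in 6 and lower in 8 of 14, with a median of -0.0453. Without rat 1 they were higher in 7 and lower in 7, with a median of 0.00334. Synaptic vesicle genes were lower in 21 of 27, with a median of -0.0691. They were lower in 16 with a median of -0.0443 without rat 2, in 16 with -0.0352 without rat 3, and in 15 with -0.0132 without saline rat 8. Among cholinergic genes, the acetylcholine-synthesizing enzyme Chat differed by 0.27 ± 0.14 and the choline transporter Slc5a7 by 0.30 ± 0.15. Striatal interneuron markers were higher in 5 and lower in 3 of 8 tested, with a median of 0.0762. Without rat 5 they were higher in 4 and lower in 4, with a median of 0.0237.

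Housekeeping lists leaned one way by small amounts. Cholesterol synthesis genes were lower in 17 of 18, with a median of -0.102 (-0.0764 without rat 2, with 16 lower, and -0.0583 without saline rat 9, with 13 lower). Sqle, which makes squalene epoxide, was 7.57 to 7.98 (median 7.80) with pramipexole and 7.83 to 8.56 (median 8.08) with saline, a difference of -0.27 ± 0.09 (SE, adjusted p = 0.725 by limma), and Lss differed by -0.24 ± 0.10. Ribosomal protein genes were higher in all 20 tested, with a median of 0.0877, and rat 2 had the highest score of the 14 rats at 0.30. Without rat 2, 19 were higher with a median of 0.0485. Rpl14 differed by 0.14 ± 0.05 and Rpl41 by 0.13 ± 0.05. Subunits of oxidative phosphorylation were higher in 36 of 45, with a median of 0.0227. That median was 0.0364 without saline rat 8 and 0.016 without saline rat 10, with 31 higher in the latter. Proteasome subunits were higher in 22 of 30, with a median of 0.0254 (0.0452 without rat 1 and 0.0163 without saline rat 11). The scores of both groups overlapped for each of these 4 lists.

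Microglial and interferon genes show what rat 2 adds. Microglial markers were higher in 16 of 17 with a median of 0.366, and without rat 2 in 10 of 17 with a median of 0.0232. Genes of interferon response and antigen presentation were higher in 18 of 21 with a median of 0.346, and without rat 2 in 9 of 21 with a median of -0.0122. In rat 2 the MHC class II genes RT1-Ba and RT1-Da read 11.96 and 12.50, against means of 4.31 and 6.03 in the other 6 pramipexole rats. The invariant chain Cd74 read 12.73 against 6.22, and the complement genes C3 and C1qc 11.51 against 6.62 and 10.50 against 6.64. The highest of the other 13 rats was 5.98 for RT1-Ba, 7.35 for Cd74 and 7.26 for C3. The pramipexole difference of Cd74 was 0.74 with rat 2 and -0.19 without it, and that of C1qc 0.71 ± 0.38 and 0.16. Homeostatic microglial genes were highest in rat 2 too, with Tmem119 at 8.29 and P2ry12 at 9.94. Mx2, an interferon-induced antiviral gene, differed by 0.43 ± 0.15 with rat 2 and 0.30 without it.

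**Figure D5:**
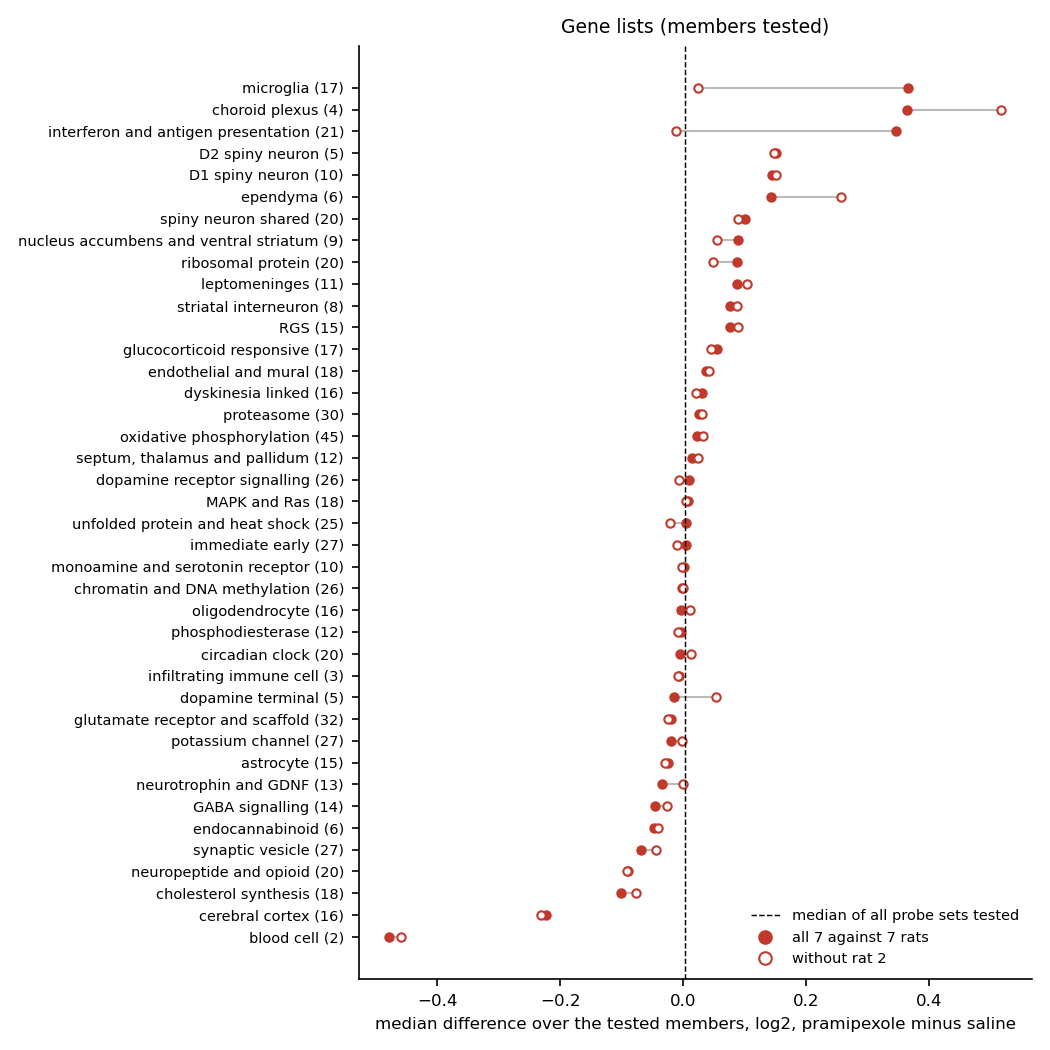
Median log2 difference between pramipexole and saline conditioning (x axis) over the tested members of 40 gene lists (y axis, members tested in brackets), with all rats (filled) and without rat 2 (open). Microglial and interferon lists move from 0.366 to 0.0232 and from 0.346 to -0.0122 when rat 2 is left out, while the spiny neuron and cortical lists lie close to their first values under that omission.

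Of the other cell types, astrocyte markers were lower in 12 of 15 with a median of -0.0255, although Agt, the angiotensin precursor, was higher by 0.58 ± 0.26 (SE, adjusted p = 0.876 by limma). Oligodendrocyte markers were higher in 8 of 16 with a median of -0.00429, and endothelial and mural markers in 13 of 18 with a median of 0.0361. Ependymal markers were higher in 5 of 6 with a median of 0.143, and without rat 2 in 6 of 6 with a median of 0.256. The ependymal score was -0.51 in rat 2, 0.09 to 0.28 in the other pramipexole rats and -0.74 to 0.32 in saline rats, and the median was 0.0648 without saline rat 8. Markers of leptomeninges were higher in 6 of 11 and lower in 5. Those of septum, thalamus and pallidum were higher in 7 of 12 with a median of 0.0137, with Nkx2-1 at 0.30 ± 0.10. Infiltrating immune cells had only 3 tested markers of 23, with a median of -0.00719. With 1 rat left out the median changed sign for the lists of astrocytes, oligodendrocytes, endothelial and mural cells, leptomeninges, infiltrating immune cells and septum, thalamus and pallidum. The lists not described so far, such as potassium channels, RGS proteins, phosphodiesterases and circadian clock genes, had medians between -0.0478 (endocannabinoid genes) and 0.0888 (genes of the nucleus accumbens and ventral striatum).

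Whether the effect of pramipexole differed with L-dopa was tested against the lesioned rats without L-dopa, and no probe set passed. limma called 0 of 18560 (0%), with a smallest adjusted p of 0.321, and 1213 probe sets (6.54%) had an unadjusted p under 0.05. Peli2, an E3 ligase of innate immune signalling, had the smallest p. Its values in rats 1 to 7 were 6.21, 6.02, 6.02, 5.93, 5.66, 6.08 and 5.79, against 5.67, 5.80, 5.66, 5.77, 5.62, 5.70 and 5.48 in rats 8 to 14. Rats 5 and 7 overlapped the saline range. The pramipexole difference was 0.29 ± 0.07 (SE) with L-dopa and -0.26 ± 0.07 without, and the difference between the 2 was 0.54 ± 0.11 (adjusted p = 0.321). Without rat 5 it was 0.59 and was the only probe set called (adjusted p = 0.0441).

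The other genes of smallest interaction p, chosen by that test, lay in opposite directions in the 2 comparisons, with 1 exception. Spire1 differed by -0.34 with L-dopa and 0.22 without, Parp11 by 0.23 and -0.17, the TGF-beta binding protein Ltbp4 by -0.27 and 0.28, and Tm9sf4 by 0.31 and -0.06. Mfhas1, a leucine-rich repeat protein of innate signalling, differed by 0.16 ± 0.20 (SE) with L-dopa and by 1.34 ± 0.20 without. In rats 1 to 7 it was 6.20 to 7.58 (median 7.17) and in rats 8 to 14 it was 6.37 to 7.25 (median 7.11). Its interaction was -1.18 ± 0.29 (adjusted p = 0.607 by limma), and its other 2 probe sets differed by -0.0041 and 0.08 with L-dopa.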

How the data were processed

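Gene expression was measured on Affymetrix Rat230_2 arrays from 100 ng of RNA, with 1 array per rat. The deposited values are log2 signals that the authors made with MAS5, per the submitters' processing notes; its version and scaling target are not given in the sources used here. Raised to the power of 2, they have a trimmed mean (2% off each end) of 150.042 to 150.044 on each of the 14 arrays, so each array is scaled to a common level. They were used as deposited. The table holds 31099 probe sets; the 57 controls were left out, and of the 18560 tested 13558 carry 1 symbol, 310 several and 4692 none. Of 20832 probe sets with 1 symbol 99.7% matched the RefSeq gene table by gene number. The table has 0 columns of no sample. Promoter sequences are from RefSeq, GRCr8.

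limma 3.58.1 in R 4.3.3 (lmFit, eBayes, two-sided) was fitted to the group means of the 28 arrays of the 4 lesioned groups. Earlier results of these data showed a step between arrays 1 to 37 and arrays 38 to 56, and all lesioned arrays lie before it. Sham values come from a fit to all 56 arrays, which has no term for the step. Precision is limited by the number of arrays. The fit was tested on simulated data. The members and the 40 gene lists were chosen with earlier results of these data known. Named genes are the 12 higher and 12 lower of smallest p with 1 symbol, the 8 of widest gap between groups that do not overlap, the 2 of smallest p of each list, 6 for the interaction, and Drd1, Drd2, Drd3, Penk, Pdyn, Tac1, Fosb, Th, Homer1, Arc and Bdnf; others in the text were chosen after their values were seen. In a list, a gene's probe set of highest mean stands for it. Alternatives were the arrays in the fit, the filter, quantile normalization, adding 16 to the unlogged signal, a robust eBayes prior with a trend on intensity, weighting of arrays, covariates for RNA quality, cortex and choroid plexus, and leaving out each rat; leaving out rats other than rat 2 for the gene lists was chosen after seeing the data.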

Additional observations from a re-analysis of the deposited data

Results flagged for a closer look

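In a group of 7, a rat was singled out where its gap to the nearest other rat exceeded 0.568 of the range of the group; the number given is that share. Of 324 groups of values 36 did so, where about 1 in 20, or 16, would do so if the groups were separate and unselected. They are neither: many genes were chosen by their values, and related probe sets and list scores repeat the same signal. The 36 therefore cannot be read as an excess over 16. The flags lay on 11 rats, with 9 on rat 2, 8 on rat 1, 5 on rat 3 and 4 on rat 7.

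Rat 1 was the highest of its group for Hbb (0.668), the 3 alpha-globin probe sets (0.804, 0.789 and 0.628), both probe sets of Hbbl1 and Hbb-bs (0.655 and 0.668) and the blood cell score (0.585), and the lowest for the serotonin receptor Htr1d (0.606). Rat 2 was the highest for the microglial score (0.866), the interferon and antigen presentation score (0.723), C1qc (0.843), Trem2 (0.626), Rgs10 (0.694), Pdia3 (0.737) and Arhgap24 (0.749), and the lowest for Eya1 (0.753) and the ependymal score (0.757). Rat 3 was the highest for the scores of D2 spiny neurons (0.651), of genes common to spiny neurons (0.785) and of dopamine receptor signalling (0.636), and the lowest for Sstr2 (0.587) and the neuropeptide score (0.605). Rat 7 was the highest for Ttr (0.719), Enpp2 (0.604), which choroid plexus and oligodendrocytes both express, and the choroid plexus score (0.649), and the lowest for Lck (0.657). Rat 5 was the highest for Dlg3 (0.590).

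Among saline rats, rat 12 was the lowest for Parp11 (0.666), Enpp2 (0.600) and the oligodendrocyte score (0.614). Rat 13 was the lowest for Mx2 (0.623) and the highest for the dopamine terminal score (0.598). Rat 9 was the highest for Sqle (0.642), rat 10 for Nkx2-1 (0.640), rat 11 for Arhgap24 (0.574) and rat 8 for the leptomeningeal score (0.616).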

How the results depend on the processing

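Of 3024 values of 122 probe sets under 11 settings and 14 single rats left out, 3005 kept their sign and their side of the threshold, 7 passed it (all globin) and 12 changed sign. With no filter on low signals, 1 probe set was called higher (no symbol, 2.18, adjusted p = 0.0482, means of 2.80 and 0.62), 961 were higher and 685 lower at an unadjusted p under 0.05, and the groups did not overlap for 11 higher and 8 lower; more probe sets are tested there. Without rat 2 those counts were 11 and 6, where the smaller group separates more easily. The probe sets called lower were 3 over all 56 arrays, and 0 to 4 with 1 rat left out. The interaction calls were 0 to 1 with 1 rat left out. With choroid plexus markers as a covariate Enpp2 became -0.0569 and Lck 0.108; with cortical markers Drd1 became -0.0103 and Pdyn -0.00968. The cause was not tested. With 1 rat left out, the 3′ minus 5′ difference ran from -0.0234 to 0.0221, Lck from -0.0526 to 0.0785, Mrc1 from -0.0262 to 0.137, Pdyn from -0.0249 to 0.172 and Pf4 from -0.142 to 0.00951. No paired analysis was possible because rat numbers are not shared between groups. Signals near the filter carry little above background, and no detection calls were used here.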
